A study of Mus musculus with 2 samples.

Results

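The 40 genes described here are transcribed mainly in S phase, the part of the cell cycle in which DNA is copied, and form a list used widely to score that phase in single cells. They were taken by symbol, and all 40 were found among the 32285 genes of both libraries. The libraries hold single-cell transcriptomes of mouse cochleae at E16.5, 1 from Emx2Cre;Ptch1f/f embryos, which carry floxed Ptch1 alleles and a Cre recombinase named for Emx2, and 1 from wild-type embryos. Each library pooled 8 cochleae, both on a mixed 129/SvEv and C57BL/6N background, so neither genotype has a replicate. No test was therefore run, no difference below has a replicate check, and every interval covers counting error only. Ptch1 is the receptor that keeps Hedgehog signalling off without ligand, and the series concerns its role in marginal cell differentiation. The labels do not name the floxed Ptch1 exons. Ptch1 stood at 184.1 CPM (the gene's UMIs scaled to the total UMIs of its class) in mutant and 28.72 CPM in wild-type epithelium, so these tags from the 3′ end of transcripts do not check the deletion. Emx2 itself was detected in the epithelium at 32.01 CPM in the mutant and 18.12 CPM in the wild type, with only 12 and 4 UMIs in the mesenchyme of the mutant and the wild type.

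DNA replication begins when the Mcm2 to Mcm7 helicase is loaded on origins and is then switched on, after which polymerases, a sliding clamp and nucleotide-producing enzymes copy the strands and histone chaperones rebuild the chromatin. Many genes of this machinery are switched on together before S phase by E2F transcription factors, which retinoblastoma proteins hold in check until cyclin-dependent kinases release them. In the cochlea, prosensory cells leave the cell cycle before this age, while mesenchyme, glia and vessels go on dividing.

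E2F-type words stood in the promoters of some of these genes. RefSeq promoter sequences on GRCm38.p6 were at hand for 31 of the 40 genes, and the 250 bases before the transcription start were searched on both strands for the words TTTCCCGC, TTTGGCGC, TTTCGCGC and TTTGCCGC. A word was found for 9 of the 31 genes (29.0%), namely Cdc6, Cdca7, Dtl, Hells, Mcm5, Mcm6, Mcm7, Pola1 and Uhrf1, and for 583 of the 27025 genes of the whole table (2.16%). A match is a description of the letters and not of a bound site. The 4 promoters below are those with a word whose 250 bases lie outside the annotated gene. Capitals mark the words, which overlap each other in Mcm5 and, for the first of its sites, in Mcm6.
Mcm5 (chr8:75109259-75109508, plus strand): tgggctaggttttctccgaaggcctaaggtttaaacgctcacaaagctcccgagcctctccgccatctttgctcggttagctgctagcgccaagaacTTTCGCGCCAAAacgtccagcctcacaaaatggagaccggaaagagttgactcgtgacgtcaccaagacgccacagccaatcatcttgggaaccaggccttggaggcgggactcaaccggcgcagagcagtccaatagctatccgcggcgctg
Mcm6 (chr1:128359706-128359955, minus strand): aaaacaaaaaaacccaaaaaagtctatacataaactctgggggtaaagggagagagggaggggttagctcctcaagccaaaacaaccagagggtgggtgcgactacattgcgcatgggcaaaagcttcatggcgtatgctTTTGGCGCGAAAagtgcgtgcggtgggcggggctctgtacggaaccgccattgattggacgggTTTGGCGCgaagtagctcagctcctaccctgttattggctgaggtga
Dtl (chr1:191575545-191575794, minus strand): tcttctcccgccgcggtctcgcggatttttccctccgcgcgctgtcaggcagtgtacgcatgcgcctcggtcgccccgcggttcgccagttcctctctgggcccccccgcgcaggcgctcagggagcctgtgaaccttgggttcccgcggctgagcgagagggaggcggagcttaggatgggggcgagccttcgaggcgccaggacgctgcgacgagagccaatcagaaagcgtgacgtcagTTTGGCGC
Pola1 (chrX:93632156-93632405, minus strand): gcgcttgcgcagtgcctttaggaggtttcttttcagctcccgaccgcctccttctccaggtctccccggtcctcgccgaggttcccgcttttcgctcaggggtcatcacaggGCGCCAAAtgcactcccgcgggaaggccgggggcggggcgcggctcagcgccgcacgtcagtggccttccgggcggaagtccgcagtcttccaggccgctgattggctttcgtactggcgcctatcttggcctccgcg
Mcm5 and Mcm6 encode helicase subunits, Dtl a subunit of the ubiquitin ligase that removes the licensing factor Cdt1, and Pola1 the catalytic subunit of the polymerase that starts each new strand. The first word lay 153 bases before the start in Mcm5, 110 in Mcm6, 8 in Dtl and 138 in Pola1.

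The libraries differ in ways that touch every comparison between them. There were 12326 mutant barcodes with 100135532 UMIs in all, the smallest of 500 UMIs, and 6500 wild-type barcodes with 61130806 UMIs, the smallest of 3352 UMIs. After filtering 8670 mutant and 6108 wild-type barcodes were kept, and 17 barcode sequences occurred in both. Classes were built from clusters named by markers, made without the 40 genes and the other cell cycle lists used below. A barcode with over 0.05% of its UMIs from markers of other lineages is called mixed. The rule depends on depth, since a barcode under 2000 UMIs is mixed on a single such UMI and deeper ones need more. Of the epithelial barcodes 683 in the mutant and none in the wild type were under 2000 UMIs, so the rule acts differently on the libraries. Mixed barcodes made up 43.0% of mutant and 71.0% of wild-type epithelial barcodes, 22.9% of mutant and 9.56% of wild-type mesenchymal barcodes, and 52.7% of mutant and 52.1% of wild-type glial barcodes. All 8 epithelial markers were at 10 CPM or more in the epithelium of both libraries. The 10 mesenchymal markers summed to 184.6 CPM in mutant and 1691 CPM in wild-type epithelium, and the 7 erythroid markers to 246.8 CPM and 4917 CPM in the same order. Glial and neuronal markers are not counted by the rule for mixed barcodes. In mutant and wild-type epithelium the glial markers summed to 334.4 and 483.3 CPM and the neuronal ones to 32.5 and 438.8 CPM. Their part in the results was not tested, and values without mixed barcodes stand beside those with them.

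With all barcodes, glia had the highest summed S phase level of epithelium, mesenchyme, glia, endothelium and macrophages in each library. In the mutant library the 40 genes together took 2991 CPM in glia (95% Poisson interval 2939 to 3044, 448 cells), 2465 CPM in mesenchyme (2451 to 2479, 5612 cells), 2322 CPM in endothelium (2264 to 2381, 119 cells), 2113 CPM in macrophages (2021 to 2209, 94 cells) and 1945 CPM in epithelium (1926 to 1964, 2066 cells). In the wild-type library they took 2546 CPM in glia (2490 to 2604, 434 cells), 2432 CPM in mesenchyme (2413 to 2451, 3160 cells), 2366 CPM in macrophages (2236 to 2502, 46 cells), 1575 CPM in endothelium (1515 to 1638, 138 cells) and 1248 CPM in epithelium (1232 to 1265, 1609 cells). Epithelium was thus the lowest of these 5 classes in each library. In the wild type the interval of macrophages overlapped those of mesenchyme and glia, and in the mutant no intervals of neighbours overlapped. Pericytes or smooth muscle cells, the other vascular class, had 1826 CPM in the mutant (1753 to 1901, 113 cells) and 1935 CPM in the wild type (1849 to 2023, 115 cells). Without mixed barcodes glia and mesenchyme were level in the wild type, at 2477 CPM (2396 to 2559) and 2475 CPM (2455 to 2494). In the mutant they then had 2876 and 2528 CPM. With equal weight per cell and all barcodes, wild-type mesenchyme had 2153 CPM and wild-type glia 2139 CPM.

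**Figure D1:**
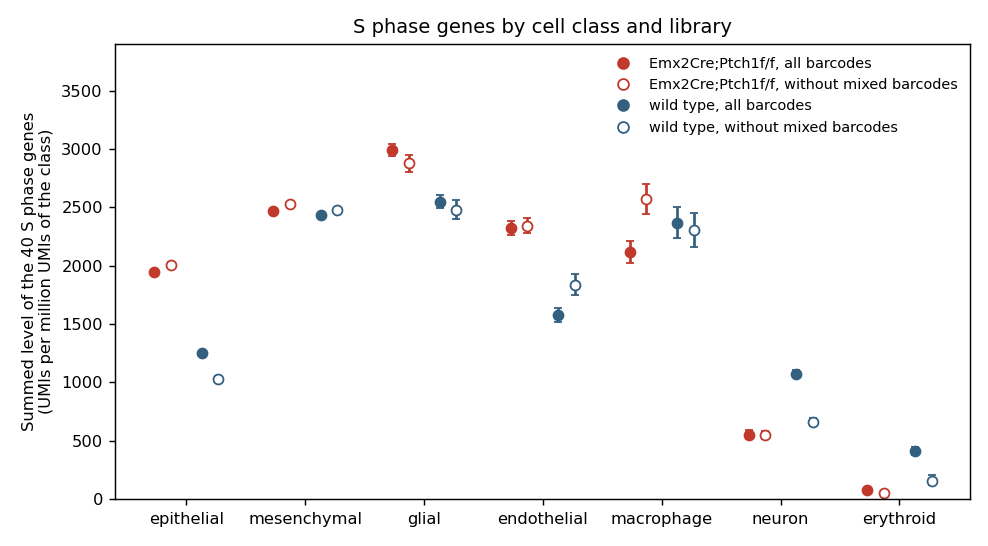
Summed level of the 40 S phase genes (vertical axis, CPM) in 7 cell classes, with mutant points left of wild-type points, filled for all barcodes and open without mixed ones, and bars for exact 95% Poisson intervals. Epithelial cells stand at 1945 CPM in the mutant and 1248 CPM in the wild type, mesenchymal cells at 2465 and 2432 CPM, and neurons at 551.5 and 1073 CPM in the same order.

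Neurons and erythroid cells, which should hold few dividing cells, were taken as a low reference. The wild-type neurons serve poorly as one. A UMI of Mki67 or Top2a, genes of dividing cells, was held by 51.6% of them, against 14.7% of mutant neurons and 51.8% of wild-type epithelial cells. Neurons had 551.5 CPM in the mutant (516.0 to 588.8, 68 cells) and 1073 CPM in the wild type (1044 to 1103, 428 cells), where 10.3% and 78.0% of the barcodes were mixed. Without mixed barcodes the neuronal values were 546.9 CPM in the mutant (61 cells) and 657.4 CPM in the wild type (94 cells). Erythroid cells had 77.65 CPM in the mutant and 408.2 CPM in the wild type, and 52.62 CPM and 155.2 CPM without mixed barcodes, the last over 10 cells. Of the 40 genes 39 were lower in neurons than in epithelium of the mutant library, with a median ratio of 0.221, and 30 were so in the wild type, with a median ratio of 0.840. The share of all genes lower in neurons was not counted. Ubr7, of the UBR family of ubiquitin ligases, was the exception in the mutant, at 1.14 times its epithelial level. Cdc6, Dscc1 and E2f8 had no UMI in mutant neurons.

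Single genes followed the order of the sum only in part. Of the 40 genes 27 were highest in glia in the mutant library, 5 in endothelium, 4 in macrophages and 4 in mesenchyme. In the wild-type library 16 were highest in glia, 15 in macrophages, 8 in mesenchyme and 1, Ubr7, in endothelium. The same was not counted over all genes, so these numbers describe the members and do not set them apart from other genes. Mcm3, Gins2, Pold3 and Pcna were highest in macrophages of both libraries, the helicase gene Mcm3 at 160.1 CPM in the mutant and 156.7 CPM in the wild type, against 54.16 and 29.51 CPM in epithelium. For Pold3 the wild-type order was close to a tie, at 42.05 CPM in macrophages and 41.90 CPM in endothelium. Nasp, a histone chaperone, Slbp, which binds the stem-loop of histone mRNAs, Cdca7, a partner of the remodeller Hells, and Dtl were highest in mesenchyme of both libraries. For Cdca7 this level was 88.55 CPM in the mutant and 85.06 CPM in the wild type, while none of the other 4 classes exceeded 48.59 CPM. Of the 5 classes Dtl was lowest in macrophages, at 8.594 CPM in the mutant and 13.38 CPM in the wild type.

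Among these 5 classes the summed level differed most between genotypes in the epithelium. With all barcodes the endothelium came close, at a summed log2 ratio of 0.56 and a median over single genes of 0.66. The 40 genes together stood at 1945 CPM in mutant and 1248 CPM in wild-type epithelium, a log2 ratio of 0.64 (0.62 to 0.66). All 40 genes passed the floor of 30 UMIs over both libraries, and all 40 were higher in the mutant by some amount, as were 55.0% of the 14334 genes over that floor. Their median log2 ratio of CPM + 1 was 0.67, against 0.05 over all genes. At least 2-fold higher were 4 of the 40, E2f8, Exo1, Uhrf1 and Clspn, against 2.42% of all genes, and none was 2-fold lower, against 6.68%. For 38 of the 40 genes the counting interval of the ratio lay above 0, Pola1 and Ubr7 being the exceptions. Such intervals were not counted over all genes, so this number has no background to be read against. Epithelial barcodes were shallower in the mutant, with a median of 3709.5 UMIs, than in the wild type, with 7883 UMIs. Among barcodes of at least 3352 UMIs the sums were 1954 CPM in the mutant (1074 cells) and 1248 CPM in the wild type (1609 cells). Without mixed barcodes the sums were 2008 CPM in the mutant (1178 cells) and 1029 CPM in the wild type (466 cells), a log2 ratio of 0.96, and 27 of the 40 genes were then at least 2-fold higher, against 3.64% of all genes, and none 2-fold lower, against 2.47%. The libraries fell largely into different epithelial clusters, the mutant into those led by Cryab and Rab25 (708 of its cells, 10 of the wild type), Tecta and Tectb (376 and 105), Tectb and Sall3 (365 and 33) and Oc90 and Vmo1 (264 and 2). The clusters with most wild-type cells were led by Ecrg4 and Smoc2 (221 mutant and 383 wild-type cells) and Plet1 and Tac1 (39 and 370). Where clusters with 90% or more of their cells from 1 library were left out, 688 mutant and 597 wild-type cells gave 2219 CPM and 1117 CPM.

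The helicase subunits were higher in the mutant epithelium by similar amounts. Mcm3 had 54.16 CPM in the mutant and 29.51 CPM in the wild type (log2 ratio 0.85), and Mcm5 41.16 and 23.36 CPM (0.79). Mcm2 had 37.67 CPM in the mutant and 23.02 CPM in the wild type (0.69), Mcm6 73.12 and 45.77 CPM (0.66), Mcm7 82.92 and 52.03 CPM (0.66) and Mcm4 37.72 and 24.38 CPM (0.61). The 6 subunits of this ring thus spanned a narrow range, and their sum gave a log2 ratio of 0.72 (0.66 to 0.78). Loading and firing factors differed more among themselves. Cdc45, which activates the loaded helicase, had 11.13 CPM in the mutant and 5.079 CPM in the wild type (1.00). Geminin, Gmnn, which stops origins from being licensed again, had 49.63 and 24.83 CPM (0.97). Gins2, of the complex that joins Cdc45 on the helicase, had 30.38 and 20.49 CPM (0.55), and the helicase loader Cdc6 9.749 and 6.433 CPM (0.53). Cdc45 and Gmnn lay just under a 2-fold difference and the other two well below it.

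Among the polymerase and fork proteins the difference was uneven. The sliding clamp Pcna had 98.87 CPM in the mutant and 57.28 CPM in the wild type (0.78), the primase subunit Prim1 29.99 and 18.17 CPM (0.69), and Fen1, the nuclease that trims Okazaki fragments, 24.52 and 15.52 CPM (0.63). The DNA-binding protein Rpa2 had 39.24 CPM in the mutant and 29.23 CPM in the wild type (0.41), the clamp loader subunit Rfc2 73.61 and 56.49 CPM (0.38), and Pold3, an accessory subunit of polymerase delta, 35.90 and 28.33 CPM (0.33). Pola1, whose promoter is printed above, had 19.89 CPM in the mutant and 19.64 CPM in the wild type, with a log2 ratio of 0.02 whose counting interval (-0.19 to 0.23) held 0. Without mixed barcodes Pola1 was the only one of the 40 genes lower in the mutant, at 20.65 CPM against 21.91 CPM in the wild type (-0.08). Pola1 lies on the X chromosome (chrX:93304767-93632155, mm10, minus strand). The enzymes of nucleotide supply were higher in the mutant, Rrm1, a subunit of ribonucleotide reductase, at 59.43 against 32.39 CPM in the wild type (0.86) and thymidylate synthase Tyms at 64.85 against 40.35 CPM (0.67). Rrm2, the partner subunit of Rrm1, had 35.01 CPM in the mutant and 26.07 CPM in the wild type (0.41). Of the 40 genes its ratio moved most without mixed barcodes, where it had 36.26 CPM in the mutant and 9.453 CPM in the wild type (1.83).

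Chromatin genes spanned a wide range. Uhrf1, which brings the maintenance methyltransferase to newly copied DNA, had 43.43 CPM in the mutant and 19.13 CPM in the wild type (1.14). Hells, a remodeller needed for DNA methylation, had 64.60 and 33.69 CPM (0.92), and Chaf1b, of the chromatin assembly factor, 18.56 and 9.989 CPM (0.83). Nasp had 361.8 CPM in the mutant and 232.8 CPM in the wild type (0.63). Cdca7 had 26.98 and 23.19 CPM (0.21) and Slbp 131.0 and 119.6 CPM (0.13), the smallest ratios of these 6 genes. Nasp, Slbp and Pcna held the most UMIs of the 40, and without the 3 genes with most UMIs the summed log2 ratio was 0.69.

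Repair and checkpoint genes were all higher in the mutant epithelium. Exo1, a mismatch repair exonuclease (chr1:175880581-175913489, plus strand), had 15.22 CPM in the mutant and 5.982 CPM in the wild type (1.22), and Clspn, the adaptor that lets the checkpoint kinase Chk1 act at stalled forks (chr4:126556935-126593903, plus strand), 33.19 and 15.18 CPM (1.08). The uracil glycosylase Ung had 21.76 CPM in the mutant and 10.44 CPM in the wild type (0.99), and the helicase Blm 27.87 and 13.71 CPM (0.97). These were the largest differences of the group. The clamp loader component Dscc1 had 7.583 CPM in the mutant and 4.120 CPM in the wild type (0.75), and Dtl 44.61 and 26.35 CPM (0.74). Usp1, which takes ubiquitin off Pcna, had 82.82 and 52.93 CPM (0.64), and Tipin, which steadies the fork with Timeless, 68.20 and 44.64 CPM (0.60). Of the regulators, E2f8, an atypical E2F that represses E2F targets (chr7:48866429-48881596, minus strand), had 11.87 CPM in the mutant and 3.104 CPM in the wild type, the largest ratio of the 40 (1.65, from 241 and 55 UMIs). The cyclins that drive entry into S phase differed less, Ccne2 at 11.28 CPM in the mutant and 7.844 CPM in the wild type (0.47) and Ccne1 at 15.12 and 10.67 CPM (0.47). Wdr76, a WD repeat protein, had 13.54 and 10.05 CPM (0.40), and Ubr7 18.86 and 16.70 CPM (0.17, counting interval -0.05 to 0.40).

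**Figure D2:**
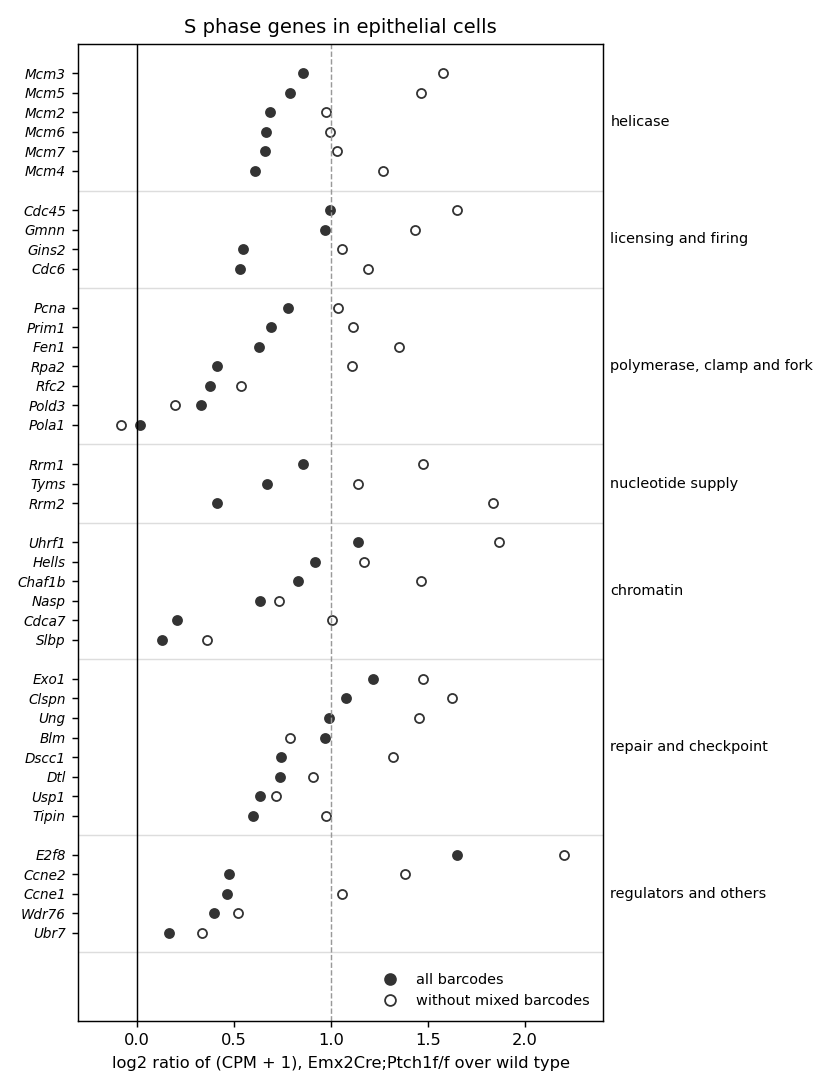
Log2 ratio of CPM + 1, Emx2Cre;Ptch1f/f over wild type, in epithelial cells (horizontal axis) for 39 of the 40 S phase genes, in blocks by role, filled for all barcodes and open without mixed ones, with the dashed line at 2-fold. Filled points run from 0.02 for Pola1 to 1.65 for E2f8, and open points from -0.08 to 2.20 for the same genes.

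Other genes of the pathway stood in the same direction in the epithelium. The list of 38 other replication genes had a median log2 ratio of 0.64, with 38 of 38 higher, against 55.0% of all genes, and 6 of these past 2-fold, against 2.42%. Its largest ratios were those of Ticrr, which helps fire origins (10.83 CPM in the mutant and 3.499 CPM in the wild type, 1.40), Wdhd1 (14.23 and 5.643 CPM, 1.20) and the DNA ligase Lig1 (97.59 and 42.32 CPM, 1.19), and its smallest were Casp8ap2 (0.16), Rpa1 (0.17) and Rpa3 (0.19). Beside the same shares of all genes, all 30 genes of G2 and M phase were higher, with a median of 0.89 and 10 at least 2-fold higher, led by the cyclin Ccna2 (61.16 CPM in the mutant and 21.90 CPM in the wild type, 1.44), Aurkb (36.34 and 16.48 CPM, 1.10) and Nusap1 (98.09 and 45.54 CPM, 1.09). Smallest there were Hmmr (0.57), Anln (0.58) and Cenpe (0.70). Of 12 E2F and pocket protein genes 11 were higher, against 55.0% of all genes (median 0.42), E2f7 at 11.77 CPM in the mutant against 4.628 CPM in the wild type (1.18), E2f2 at 9.602 against 4.345 CPM (0.99) and E2f1 at 12.85 against 6.603 CPM (0.87). The pocket proteins Rbl2 (-0.01) and Rb1 (0.17) and the repressor E2f6 (0.12) were nearly level. The inhibitors of cyclin-dependent kinases had a median of -0.18 over the 6 of 7 with 30 UMIs, with Cdkn1a at 39.64 CPM in the mutant and 64.79 CPM in the wild type (-0.69), Cdkn1c at 599.0 and 853.4 CPM (-0.51) and Cdkn2d at 21.07 and 26.24 CPM (-0.30). Cdkn2b (0.48), Cdkn2c (0.06) and Cdkn1b (-0.06) were the highest of them.

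Within the epithelium the S phase genes were spread unevenly over sub-clusters, which again fell mostly into 1 library or the other. In the mutant the highest levels were 3759 CPM in 230 shallow cells of an unnamed sub-cluster led by Msc and Pbk (3593 to 3930, median 1747.5 UMIs) and 3441 CPM in 175 cells led by Msc and Hist1h2ap (3383 to 3500), a medial or Kolliker-like group in which Mki67 and Top2a took 1530 CPM. A further 332 medial or Kolliker-like mutant cells, led by Msc and Serpinb5, had 1997 CPM with 122.3 CPM of Mki67 and Top2a. Replication-dependent histone genes such as Hist1h2ap were not among the genes left out of the clustering, so they could shape these groups. In the wild type the highest level was 2181 CPM, in 67 prosensory or supporting-like cells led by Hes5, all of which (100%) were mixed barcodes. The wild-type group with the fewest mixed barcodes (15.4%) was 253 medial or Kolliker-like cells led by Calb1 and Adgrg2, at 835.6 CPM (803.4 to 868.9) with 12.24 CPM of Mki67 and Top2a. One sub-cluster held at least 50 cells of each library, a medial or Kolliker-like group led by Tmprss4 and Otoa. Its S phase level was 866.7 CPM in 84 mutant cells (820.2 to 915.2) and 809.8 CPM in 172 wild-type cells (771.2 to 849.8), so in these cells the intervals overlapped. Wild-type hair cell-like cells had 947.6 CPM over 103 cells, all of them mixed. The unnamed sub-clusters with at least 50 wild-type cells had genes of other lineages among their leading genes. From 80.0% to 100% of their wild-type barcodes were mixed. Those led by Cxcl2 and Pf4 had 1543 CPM (187 cells) and by Gm26885, Npy and Fabp7 1615 CPM (300 cells). Those led by Hba-a1 and Hbb-bt had 1177 CPM (75 cells) and by Esrrb and Dct 938.4 CPM (60 cells). Unnamed sub-clusters of both libraries stayed in the epithelial sums.

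In the mesenchyme the S phase genes stood at nearly the same level in both genotypes. The sums were 2465 CPM in the mutant and 2432 CPM in the wild type, a log2 ratio of 0.02 (0.01 to 0.03), and -0.02 under median-of-ratios scaling. Of the 40 genes 21 were higher and 19 lower in the mutant, against 58.2% of all genes higher, and no gene reached 2-fold, against 0.494% of all genes higher and 0.703% lower. Their median log2 ratio was 0.01, beside 0.05 over all genes. Single genes still differed beyond counting error, 11 with an interval above 0 and 9 below, numbers again without a count over all genes. The lowest ratios were those of Pola1 at 30.62 CPM in the mutant and 45.91 CPM in the wild type (-0.57), Wdr76 at 16.28 and 22.11 CPM (-0.42) and Ccne2 at 23.20 and 29.25 CPM (-0.32). The highest were those of Ung at 16.18 CPM in the mutant and 11.71 CPM in the wild type (0.44), Tipin at 74.05 and 56.92 CPM (0.37) and Dscc1 at 11.21 and 8.521 CPM (0.36). The helicase subunits summed to 434.6 CPM in the mutant and 398.7 CPM in the wild type (0.12), and the group of cyclins, E2f8, Ubr7 and Wdr76 to 100.1 and 119.6 CPM (-0.26).

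Mesenchymal clusters differed from each other far more than the libraries did. A cluster led by Slc5a7, Tafa4 and Nkx6-1, with the histone gene Hist1h2an among its leading genes, had 5680 CPM in 495 mutant cells and 5510 CPM in 355 wild-type cells. A second dividing cluster, led by Slc5a7, Ccn3 and Pdgfra, had 2108 CPM in 326 mutant cells and 2049 CPM in 216 wild-type cells. Mki67 and Top2a, which mark dividing cells and peak after S phase, were high in both, at 2199 CPM in the mutant and 2350 CPM in the wild type in the first and 1887 and 1786 CPM in the second. The S phase level thus differed within a pair of clusters with similar levels of Mki67 and Top2a. Replication-dependent histone genes were left in the clustering here too. They could have helped to split this pair, so the contrast in S phase level is not independent of how the clusters were made. The lowest cluster, led by Penk and Foxd1, had 1099 CPM in 326 mutant cells and 1203 CPM in 161 wild-type cells. The intervals of the libraries did not overlap in 5 of the 9 clusters with at least 50 cells of each, and these went both ways. Higher in the mutant were the first dividing cluster above, a cluster led by Slc5a7 and Coch, at 2021 CPM in the mutant and 1656 CPM in the wild type, and one led by Car3 and Cytl1, at 2723 and 2239 CPM. Lower in the mutant were the cluster led by Penk and Foxd1 and one led by Tafa4 and Otor, at 2569 CPM in the mutant and 2694 CPM in the wild type.

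**Figure D3:**
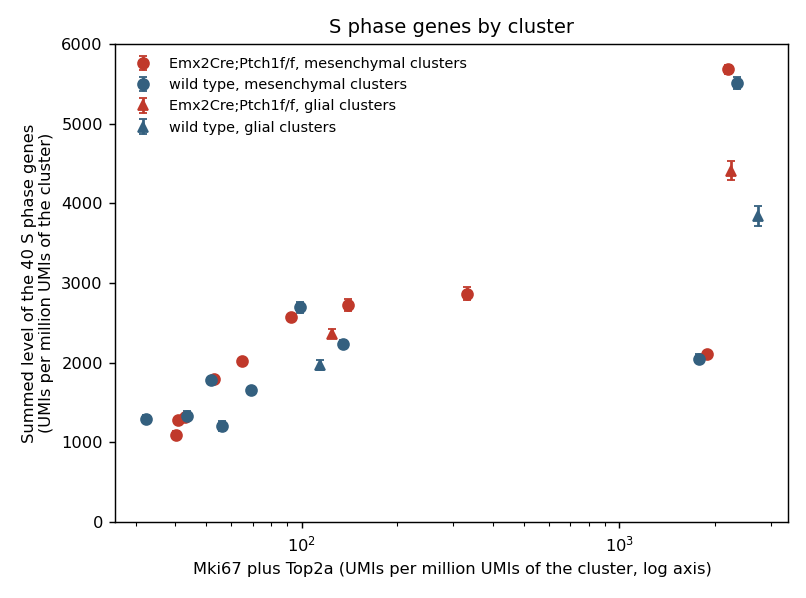
Summed level of the 40 S phase genes (vertical axis, CPM of the cluster) against Mki67 plus Top2a (horizontal log axis, same unit) in mesenchymal (circles) and glial (triangles) clusters with at least 50 cells of a library, mutant in red and wild type in blue, with 95% Poisson intervals. One mesenchymal cluster lies at 5680 CPM in the mutant and 5510 CPM in the wild type, and another with similar Mki67 plus Top2a at 2108 and 2049 CPM.

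With all barcodes glia, the Schwann cell and satellite cell precursors of the cochlear nerve, had the highest summed S phase level of the 5 classes. Without mixed barcodes they stood level with the mesenchyme in the wild type. Glia had a moderate difference between genotypes. The sums were 2991 CPM in the mutant and 2546 CPM in the wild type (log2 ratio 0.23, 0.19 to 0.27), and 2876 and 2477 CPM without mixed barcodes. Of the 40 genes 33 were higher in the mutant, against 50.7% of all genes, and none reached 2-fold in either direction, against 1.20% of all genes higher and 0.919% lower. Their median was 0.25, beside 0.01 over all genes. The highest ratios were those of Mcm2 at 63.36 CPM in the mutant and 38.74 CPM in the wild type (0.70), Cdc45 at 18.58 and 11.59 CPM (0.64) and Chaf1b at 33.35 and 21.19 CPM (0.63). The lowest were those of Ubr7 at 24.53 CPM in the mutant and 31.79 CPM in the wild type (-0.36), Pola1 at 47.16 and 55.96 CPM (-0.24) and Gins2 at 41.21 and 48.34 CPM (-0.23), all with counting intervals that held 0. Genes of G2 and M phase stood the other way, with a median of -0.18 and 23 of 30 lower in the mutant. Both glial clusters had the S phase difference, the one led by Npr3 and Foxd3 at 2364 CPM in the mutant and 1968 CPM in the wild type, and the one led by Foxd3 and Npr3 with 2248 CPM of Mki67 and Top2a in the mutant at 4410 and 3836 CPM. In the first glial cluster 355 mutant and 339 wild-type cells were counted, and in the second 93 and 95.

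Endothelial cells, which line the vessels, were higher in the mutant, at 2322 CPM against 1575 CPM in the wild type (log2 ratio 0.56, 0.49 to 0.63). Of the 39 genes with 30 UMIs 36 were higher, against 50.4% of all genes, 6 of them at least 2-fold, against 1.91%, and none was 2-fold lower, against 5.13%. Their median log2 ratio was 0.66, beside 0.0038 over all genes, and that of the epithelium was 0.67. Of the other replication genes 34 of 37 were higher (median 0.63), as were all 30 genes of G2 and M phase (median 0.63). The highest ratios were those of Cdc45 at 15.97 CPM in the mutant and 6.161 CPM in the wild type (1.24) and Ung at 18.25 and 7.393 CPM (1.20), the wild-type values resting on 10 and 12 UMIs. The lowest were those of Ubr7 at 38.02 CPM in the mutant and 44.98 CPM in the wild type (-0.24), Pold3 at 38.40 and 41.90 CPM (-0.12) and Slbp at 101.5 and 107.8 CPM (-0.09). Of the endothelial barcodes 16.8% in the mutant and 58.7% in the wild type were mixed, and 60 wild-type barcodes formed a cluster of their own in which all were mixed. The erythroid markers summed to 162.7 CPM in mutant and 18630 CPM in wild-type endothelium. Without mixed barcodes the sums were 2342 CPM in 99 mutant cells and 1836 CPM in 57 wild-type cells, a log2 ratio of 0.35. In pericytes or smooth muscle cells, at a log2 ratio of -0.08 (-0.17 to 0.00), the median over the 33 genes with 30 UMIs was -0.04, beside 0.02 over all genes.

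Macrophages, in which 94 mutant and 46 wild-type cells were counted, were slightly lower in the mutant, at 2113 CPM against 2366 CPM in the wild type (log2 ratio -0.16, -0.27 to -0.06). Of the 29 genes with 30 UMIs 7 were higher, against 45.6% of all genes, none reached 2-fold higher, against 2.67%, and Pola1 alone was 2-fold lower, against 1.88%. Pola1 had 15.04 CPM in the mutant and 47.78 CPM in the wild type (-1.60, from 14 and 25 UMIs), Fen1 33.30 and 57.34 CPM (-0.77) and Mcm6 112.8 and 173.9 CPM (-0.62). The highest ratios were those of Clspn at 56.93 CPM in the mutant and 38.23 CPM in the wild type (0.56), Prim1 at 34.38 and 26.76 CPM (0.35) and Gmnn at 59.08 and 51.61 CPM (0.19), all with intervals that held 0. The erythroid markers summed to 39140 CPM in mutant and 11280 CPM in wild-type macrophages. Of these barcodes 47 of 94 in the mutant and 19.6% in the wild type were mixed. Without them the order turned round, to 2568 CPM in 47 mutant cells and 2302 CPM in 37 wild-type cells (0.16), so no direction holds for this class.

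**Figure D4:**
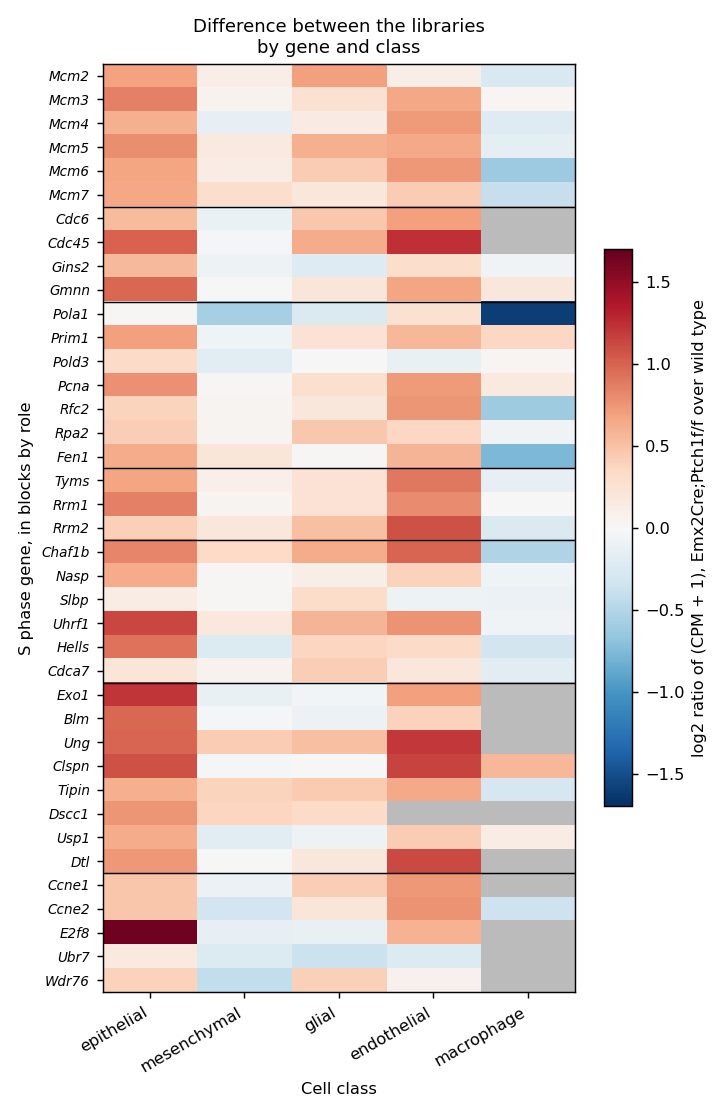
Log2 ratio of CPM + 1, Emx2Cre;Ptch1f/f over wild type, for 39 of the 40 S phase genes (rows, in blocks by role) in 5 cell classes (columns), red where higher and blue where lower in the mutant, grey under 30 UMIs over both libraries. The epithelial column holds no value under 0, and Pola1 runs from 0.26 in endothelium to -1.60 in macrophages.

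To see whether the sums were carried by a part of the cells, each cell was thinned to 2000 UMIs and called rich with at least 5 S phase UMIs. In the epithelium 29.9% of 1383 mutant cells (27.5 to 32.4, exact Clopper-Pearson) and 15.4% of 1609 wild-type cells (13.7 to 17.3) were rich, while 683 shallower mutant cells and no wild-type cell were left out. Among neurons 0 of 67 mutant cells were rich (limit of 3 counts 4.48%, exact interval up to 5.36%). Of 428 wild-type neurons 16.4% (13.0 to 20.2) were rich. The wild-type epithelial share was no higher than that of the wild-type neurons. Of those neuronal barcodes 78.0% were mixed and 51.6% held a UMI of Mki67 or Top2a. They are thus no clean background, and this measure cannot say whether the wild-type epithelium stood above one. The part of the mixed barcodes in both shares was not tested. Median depths before thinning were 8252 UMIs in mutant and 7883 UMIs in wild-type epithelium, and 23024 and 5734.5 UMIs in the neurons. Without mixed barcodes the epithelial shares were 30.3% of 975 mutant cells (27.4 to 33.2) and 6.87% of 466 wild-type cells (4.74 to 9.56), beside 0 of 60 and 4.26% of 94 neurons (1.17 to 10.5). Of the S phase UMIs left after thinning, rich cells held 69.1% in the mutant epithelium and 38.3% in the wild type. The thinned cells had means of 4.02 and 2.64 S phase UMIs in the same order. At a fixed cutoff such a share rises with the mean, so it cannot say whether a part of the cells carried the sum. Unthinned, 56.3% of mutant and 81.8% of wild-type epithelial cells had at least 5 S phase UMIs, at median depths of 3709.5 and 7883 UMIs. These cells held 96.2% of the S phase UMIs in each library.

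At the thinning and cutoff used above, the share differed less between the libraries in mesenchyme, glia, endothelium and macrophages than in the epithelium. In the mesenchyme 30.5% of 5106 mutant cells (29.2 to 31.7) and 30.1% of 3160 wild-type cells (28.5 to 31.7) were rich, and in glia 39.7% of 446 mutant cells (35.1 to 44.4) and 28.3% of 434 wild-type cells (24.1 to 32.8). Unthinned, these shares were 81.5% and 82.5% in mesenchyme and 79.5% and 67.5% in glia, mutant first in each. Endothelial shares were 26.1% of 115 mutant cells (18.3 to 35.1) and 18.8% of 138 wild-type cells (12.7 to 26.4), and macrophage shares 25.0% of 68 mutant cells (15.3 to 37.0) and 32.6% of 46 wild-type cells (19.5 to 48.0). The intervals of the libraries overlapped in mesenchyme, endothelium and macrophages, and not in glia or epithelium. Without mixed barcodes the endothelial shares turned round, to 27.8% of 97 mutant cells and 31.6% of 57 wild-type cells, as did those of macrophages, to 31.0% of 42 and 29.7% of 37. In glia the shares were then 38.4% of 211 mutant cells (31.8 to 45.3) and 27.4% of 208 wild-type cells (21.5 to 34.0), with intervals that overlapped. The small classes can show only large differences at these numbers of cells. Unthinned, the endothelial shares were 80.7% in the mutant and 88.4% in the wild type, and those of macrophages 60.6% and 78.3%. The smaller difference outside the epithelium did not hold at every setting. Thinned to 4000 UMIs, the epithelial shares were 53.5% in the mutant and 47.8% in the wild type. The gap was then wider in endothelium (59.5% and 46.5%), macrophages (41.7% and 53.3%) and glia (65.4% and 58.9%). In mesenchyme it stayed narrower (61.8% and 61.4%).

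**Figure D5:**
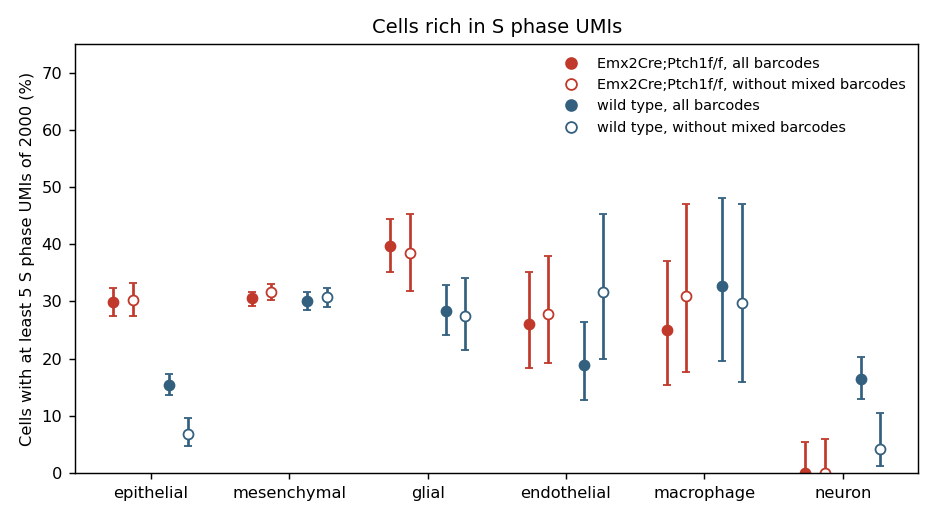
Share of cells with at least 5 S phase UMIs after thinning to 2000 UMIs (vertical axis, percent) by cell class, with mutant points left of wild-type points, filled for all barcodes and open without mixed ones, and bars for exact 95% Clopper-Pearson intervals. The epithelial shares are 29.9% in the mutant and 15.4% in the wild type, and the neuronal ones 0.0% and 16.4%.

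Within the epithelium and the mesenchyme of each library, the S phase genes were higher in cells with UMIs of other proliferation genes. Cells were split by whether they held a UMI of Mki67 or Top2a, neither of which is among the 40. In mutant epithelium the 642 cells with such a UMI had 2502 CPM of S phase genes and the 1424 without had 1195 CPM, and in wild-type epithelium the 834 with had 1523 CPM and the 775 without 904.8 CPM. The mutant cells with such a UMI were deeper, with a median of 10145 UMIs against 2568 without, and the wild-type cells differed less in depth, with medians of 8320 and 7565 UMIs. In the mesenchyme the values with such a UMI were 3677 CPM in the mutant and 3730 CPM in the wild type, and without one 1442 and 1405 CPM. All 40 genes were higher in the cells with such a UMI in epithelium and mesenchyme of both libraries. Of all genes with 30 UMIs, 52.7% were so in mutant and 50.2% in wild-type epithelium, and 44.4% in mutant and 45.1% in wild-type mesenchyme. In mutant epithelium the log2 ratio between these cells ran from 0.38 for Ung to 4.44 for E2f8, with a median of 1.22, and in wild-type epithelium from 0.24 for Pold3 to 3.79 for E2f8, with a median of 0.99. E2f8 had 233 of its 241 UMIs in such cells of the mutant epithelium and 52 of its 55 in the wild type. Slbp, Ubr7 and Rfc2 were among the genes nearest to level, at 0.52, 0.40 and 0.52 in the mutant and 0.37, 0.25 and 0.29 in the wild type.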

How the data were processed

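Raw UMI counts per gene and barcode were deposited by the authors, made with Cell Ranger 5.0.1 for the mutant and 6.0.0 for the wild type per the file headers. The submitters' processing notes name 6.0.0 and mm10. A 10x 3′ kit was used per the labels, whose sample descriptions name different kit versions. The sources used here do not say how barcodes were called as cells or whether intronic reads were counted.

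Barcodes with at least 1000 UMIs, 500 genes and at most 10% mitochondrial UMIs were kept. Scrublet called 0 doublets in each library, so it had not worked, and the top-scored 0.8% per 1000 cells were removed (703 mutant, 332 wild type). Both libraries were clustered together in scanpy 1.11.5 (igraph 0.11.9) without correction between libraries, on 2000 variable genes, 30 components, 15 neighbours and Leiden resolution 1, and epithelial sub-clusters at 0.8. A cluster took the class whose markers had the highest mean scaled CPM. The naming rule was revised 3 times after cluster names and class sizes had been seen. Classes for which no cluster held all markers at 10 CPM, cartilage and skeletal muscle, were dropped, and an immune cluster was clustered again. The rule for mixed barcodes used 43 markers from 5 lineages (epithelial, mesenchymal, endothelial, macrophage and erythroid), leaving out the barcode's own lineage. This rule was also revised after it had been seen, and the 2 dropped classes were taken out of the single-marker alternative after its first counts. Unnamed clusters held 0.646% of mutant and 0.360% of wild-type barcodes.

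UMIs were pooled by library and class as CPM. Rates have exact Poisson intervals, ratios exact conditional binomial ones and shares exact Clopper-Pearson ones, all at 95% (scipy 1.17.1). A share of 0 is given with the limit of 3 counts. Ratios of single genes are log2 of CPM + 1, those of sums log2 of CPM, and a gene is called at 2-fold with at least 30 UMIs over both libraries. The values of 1 of the 40 genes are not reported here, though it is in the counts and sums. The other 39 were named in the epithelium, and elsewhere the 3 highest and 3 lowest ratios, also in the other lists. Genes described across classes, by Mki67 or Top2a or without mixed barcodes were chosen after their values were seen. The members and lists were chosen with earlier results of these data known. Gene positions came from GENCODE vM21. The interval and ratio code was tested on simulated data. Alternatives covered clustering, depth, scaling, mixed barcodes, thinning and the added constant.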

Additional observations from a re-analysis of the deposited data

Results flagged for a closer look

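The summed S phase level of macrophages was lower in the mutant, with a log2 ratio of -0.16, while that of epithelial cells was higher, at 0.64, and neither counting interval held 0. This opposite direction between cell classes was not tested, since each genotype has 1 library. Without mixed barcodes the macrophage ratio was 0.16, in the direction of the epithelium.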

How the results depend on the processing

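No paired analysis was possible because each genotype has 1 library. The epithelial log2 ratio of 0.64 kept its direction in all 11 alternatives. It was 0.69 with cell cycle genes in the clustering, 0.70 at Leiden resolution 2, 0.71 with barcodes clustered above a common UMI floor, 0.52 with equal weight per cell, 0.58 under median-of-ratios scaling, 0.69 without the 3 genes with most UMIs, 0.84 in classes by single markers and 0.96 without mixed barcodes. The mesenchymal ratio of 0.02 was 0.0509, 0.0548 and 0.0737 in the first 3 of these, 0.0008 without the 3 genes and 0.10 by single markers, and it turned to -0.0235 under median-of-ratios scaling. The glial ratio was 0.28 without the 3 genes. The endothelial ratio was 0.42 with cell cycle genes, 0.35 without mixed barcodes, 0.42 per cell and 0.40 by single markers. The macrophage ratio was -0.43 at resolution 2, -0.37 above the common floor, -0.0564 under median-of-ratios scaling, which shifts all genes there by -0.11, and -0.35 by single markers. It turned to 0.16 without mixed barcodes. Settings added after seeing the data were the common floor with the same clusters, that floor without mixed barcodes, and leaving out clusters mostly of 1 library. They gave 0.65, 0.9708 and 0.9895 in epithelium, and the last 2 gave 0.35 and 0.42 in endothelium. The macrophage ratio was 0.1675 at that floor without mixed barcodes. The cause was not tested for any of these. Of the 40 genes 2 were 2-fold higher in the epithelium with 5 CPM added, 16 by single markers and 27 without mixed barcodes (against 0.914%, 3.01% and 3.64% of all genes), and the median was 0.94 and 1.13 in the last 2. The difference in rich epithelial cells, 14.4 percentage points, was 6.58 at 3 UMIs, 5.71 when thinned to 4000 UMIs and 23.4 without mixed barcodes. The 94 mutant and 46 wild-type macrophages give wide counting intervals.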

Other observations

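The pigment cell class (intermediate cells of the stria vascularis, or melanocytes) had the highest S phase level of any class in the wild type, at 2137 CPM in the mutant (1983 to 2300, 23 cells) and 3811 CPM in the wild type (3637 to 3992, 45 cells). The median log2 ratio over the 27 S phase genes with 30 UMIs was -0.68, beside -0.05 over all genes. After thinning to 2000 UMIs, 30.4% of the 23 mutant cells (13.2 to 52.9) and 55.6% of the 45 wild-type cells (40.0 to 70.4) held at least 5 S phase UMIs. Mixed barcodes made up 43.5% of the mutant and 20.0% of the wild-type cells of this class, and their part in the difference was not tested.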
